A study of Homo sapiens with 8 samples.

Results

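COLO829 cells that had received both a short hairpin RNA against MITF and the BRAF inhibitor PLX4032 were compared with COLO829 cells that had received a scrambled hairpin and the solvent DMSO. COLO829 is an established human melanoma cell line with an activating BRAF mutation. Cell populations were infected with the pGIPZ vector carrying either hairpin, selected with puromycin for 2 days, and then treated for 24 h with 1 µM PLX4032 (vemurafenib) or with DMSO before RNA was harvested. The comparison uses 4 of the 8 arrays of the study, 2 per group, labelled A and B. The other 4 arrays, 2 with the MITF hairpin and DMSO and 2 with the scrambled hairpin and PLX4032, entered the same fit and are given where a combined change is set beside the changes with each perturbation alone. All 8 samples had been infected and selected, so the untreated scrambled cells are not parental cells. Infected populations were used and no clones, and a single hairpin against MITF is named. Nothing in the labels tells whether A and B came from separate cultures, so a p-value here reflects the spread of these arrays alone, which could be technical. The design asks what the cells express when MITF is lowered and BRAF is inhibited at the same time. The comparison covered all 18404 genes with a probe set of their own, and none was left out for low signal.

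MITF is the lineage transcription factor of melanocytes. It binds short E-box sequences at pigment genes and at many genes of survival, proliferation and metabolism. Mutant BRAF signals through MEK to ERK, and active ERK raises its own feedback inhibitors, the Sprouty proteins and dual-specificity phosphatases, together with ETS factors, MYC and cyclin D1. Inhibition of BRAF takes this output down and is known to raise MITF activity in melanoma cells, so that the hairpin and the inhibitor act on MITF from opposite sides.

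Values are log2 intensities as deposited. A combined change is the mean of the 2 arrays with both perturbations minus the mean of the 2 untreated scrambled arrays, given ± SE from a limma fit over all 8 arrays, with p adjusted over 18404 genes. In that fit 4979 genes (27.1%) were higher and 3966 (21.5%) were lower with both perturbations at adjusted p under 0.05, and counts of list members are to be read against these shares. Among these, 672 (3.65%) were at least 2-fold higher and 952 (5.17%) at least 2-fold lower. The groups did not overlap at 13544 genes (73.6%), so non-overlap alone sets no gene apart. The arrays A and B of a group correlated at 0.99749 (untreated) and 0.99734 (both perturbations) across genes, against 0.96279 to 0.96796 between the groups. The median gene read 0.0829 higher with both perturbations, and centring each array on its median moved that by -0.112. The calls then split as 3171 higher and 4957 lower, so the balance of small rises and falls rests on the scaling, and 550 genes were called at least 2-fold higher and 1144 at least 2-fold lower.

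MITF itself was lower with both perturbations than in untreated cells and higher than with the hairpin alone. It read 10.44 and 10.46 in the untreated arrays and 10.07 and 10.08 with both perturbations. The combined change was -0.38 ± 0.080, a 1.3-fold fall (limma adjusted p = 0.00253). The level of MITF averaged 9.52 with the hairpin alone and 10.84 with the inhibitor alone, and cells with both stood 0.56 above the hairpin alone (adjusted p = 0.000239). The combined change can be written as the sum of a hairpin average (the mean of the hairpin's changes in DMSO and in PLX4032) and an inhibitor average (the mean of the inhibitor's changes with either hairpin). For MITF these were -0.85 and 0.47. The interaction, which is the combined change minus the sum of the changes with each perturbation alone, was 0.17 and did not pass the threshold (limma adjusted p = 0.415).

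ANGPTL7, a secreted angiopoietin-like protein, led the genes that rose. It read 4.58 and 4.50 in untreated cells and 10.79 and 10.81 with both perturbations, a combined change of 6.26 ± 0.12 (limma adjusted p = 2.36e-10). The untreated level was close to the median of 10 leukocyte markers on the same arrays (4.28 and 4.31) and is not shown to be above background, so the size of the rise and its departure from a sum are those of the array values only. The same holds for other genes whose lower level was of this order, KCNJ13 among them. ANGPTL7 averaged 8.35 with the inhibitor alone and 4.98 with the hairpin alone, and the combined change exceeded the sum of the single changes by 2.01 (adjusted p = 2.74e-05). KCNJ13, an inwardly rectifying potassium channel, read 4.58 and 4.40 in untreated cells and 9.39 and 9.27 with both (4.84 ± 0.10). With the inhibitor alone KCNJ13 averaged 10.82, above its level with both perturbations, and its interaction was -1.09. The matrix adaptor MATN2 rose from 6.80 and 6.96 to 11.49 and 11.56 (4.64 ± 0.092), and its interaction of 0.22 did not pass the threshold. ANGPTL7 thus rose by more than the single changes add up to and KCNJ13 by less, while no departure from the sum was detected for MATN2.

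JUN, which dimerises with FOS proteins in the AP-1 factor, read 5.79 and 5.66 in untreated cells and 9.94 and 10.03 with both perturbations, a combined change of 4.26 ± 0.094 (19.1-fold). The coiled-coil protein gene CCDC146 rose from 5.51 and 5.74 to 10.18 and 10.23 (4.58 ± 0.096). CCDC146 stood at 6.79 with the inhibitor alone and 6.92 with the hairpin alone, and its combined change exceeded the sum of the single changes (interaction 2.12, limma adjusted p = 5.81e-06). The cobalamin-binding protein gene TCN1 (4.18 ± 0.085), RFTN2 (4.15 ± 0.10), SCRG1 (4.03 ± 0.13), the monooxygenase-like gene MOXD1 (3.95 ± 0.11) and CMTM5 (3.85 ± 0.13) followed. The interferon-induced gene IFIT2 (3.85 ± 0.12), the endocytic receptor gene LRP2 (3.54 ± 0.13), the transporter-like gene SLC35F1 (3.48 ± 0.10), the neurotrophin receptor gene NGFR (3.46 ± 0.077) and the cytokine gene IL24 (3.45 ± 0.20) completed the 15 largest rises. Only called genes whose groups did not overlap could enter these 15, so both features come with the choice. Their limma adjusted p was at most 1.53e-07. IFIT2 and LRP2 averaged 9.06 and 7.38 with the hairpin alone and 5.94 and 4.37 with the inhibitor alone, while NGFR, at 10.57 and 10.62 with both, stood above its averages of 8.65 with the hairpin alone and 7.47 with the inhibitor alone (interaction 1.61).

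The 15 largest falls included 3 genes of the MAPK output list and 3 of the DNA replication list. The ETS factor gene ETV4 read 10.96 and 10.92 in untreated cells and 5.86 and 5.69 with both perturbations, a combined change of -5.16 ± 0.089 (35.8-fold lower, limma adjusted p = 1.67e-10). ETV4 averaged 6.98 with the inhibitor alone and 10.93 with the hairpin alone, and its interaction was -1.20, so it stood lower with both than the single changes sum to. The receptor gene MRGPRX4 fell from 9.57 and 9.87 to 5.07 and 5.15 (-4.61 ± 0.18), although its probes may read close relatives. The feedback inhibitor gene SPRY4 fell from 10.71 and 10.91 to 6.38 and 6.54 (-4.35 ± 0.10). SPATS1 (-3.77 ± 0.11), the sterol transfer protein gene GRAMD1B (-3.57 ± 0.16), the fatty acid transport gene SLC27A3 (-3.56 ± 0.11) and the replication checkpoint gene CLSPN (-3.52 ± 0.12) came next. The DNA polymerase epsilon subunit gene POLE2 (-3.41 ± 0.14), ETV5 (-3.39 ± 0.085), the origin licensing gene CDC6 (-3.30 ± 0.092), MCM10 (-3.14 ± 0.10), the potassium channel subunit gene KCNG4 (-3.14 ± 0.10), the endopeptidase gene MME (-3.14 ± 0.18), the purine salvage gene PNP (-3.10 ± 0.077) and the membrane protein gene TM4SF1 (-3.05 ± 0.093) made up the rest of the 15. These 15 were likewise drawn from called genes whose groups did not overlap, and limma adjusted p was at most 1.11e-07. MME averaged 4.51 with the hairpin alone and 7.10 with the inhibitor alone, and SPATS1 4.89 and 5.33.

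**Figure D1:**
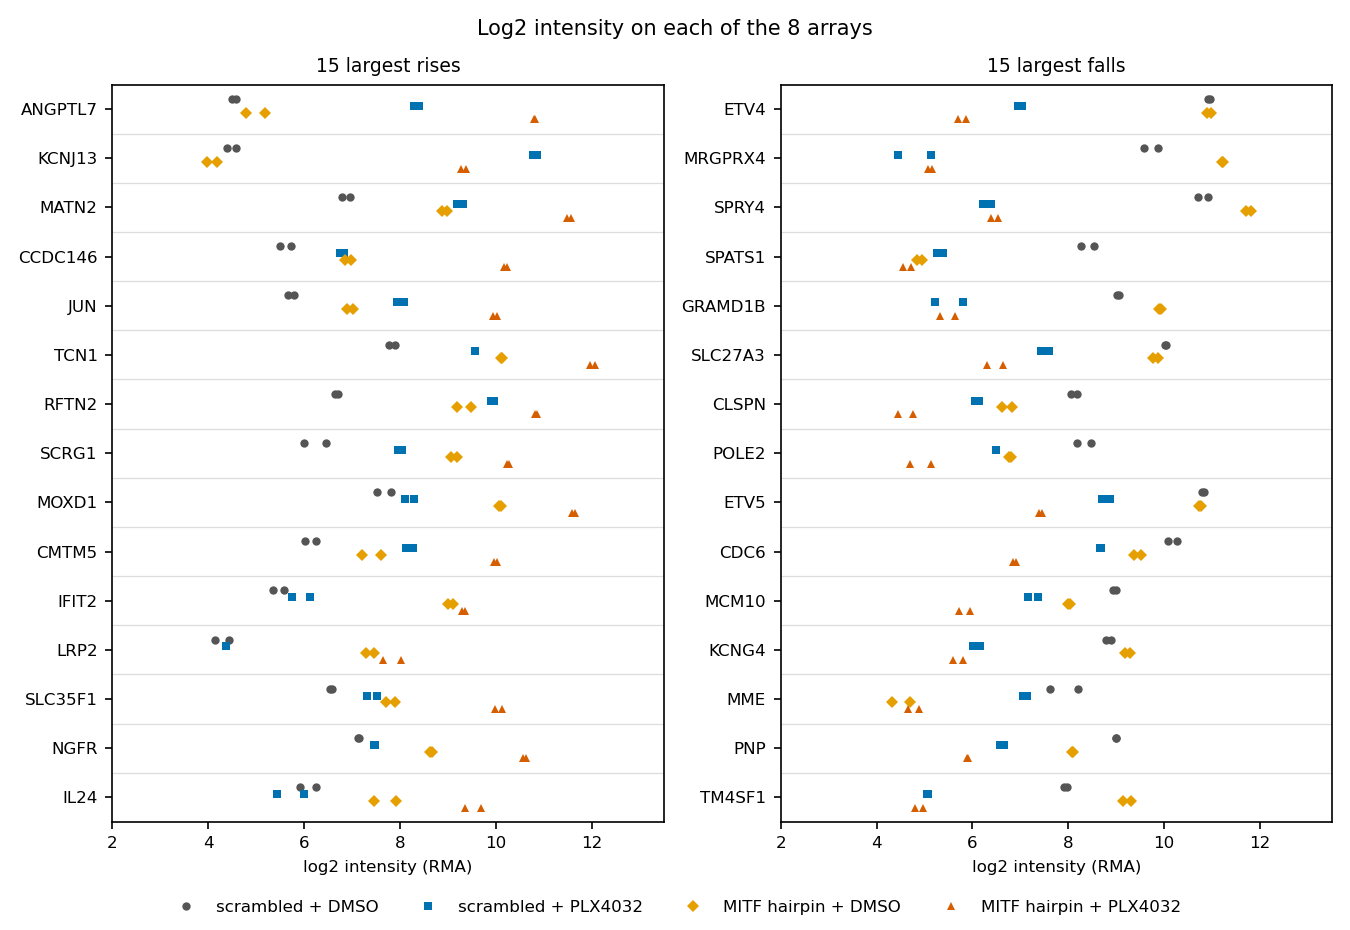
Log2 intensity (x axis) of the 15 genes with the largest rises and the 15 with the largest falls (y axis), each point an array, with symbols for the 4 groups. ANGPTL7 stands at 10.79 and 10.81 with both perturbations against 4.58 and 4.50 in untreated cells, and ETV4 at 5.86 and 5.69 against 10.96 and 10.92.

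The MAPK output list fell as a group, with exceptions. Of 24 measured members 18 fell and 4 rose, and the list's median change was -1.01 against 0.0829 over all genes. After SPRY4 and the ETS genes the largest fall was that of the feedback inhibitor gene SPRY1 (-2.53 ± 0.099). The ERK phosphatase gene DUSP6 read 10.64 and 10.76 in untreated cells and 8.62 and 8.61 with both perturbations (-2.09 ± 0.084, limma adjusted p = 1.18e-08). MYC fell from 11.45 and 11.50 to 9.39 and 9.26 (-2.15 ± 0.098), and the cyclin D1 gene CCND1 from 10.64 and 10.76 to 9.02 and 8.88 (-1.75 ± 0.087). DUSP6 and CCND1 averaged 8.02 and 8.72 with the inhibitor alone, and their interactions of 0.13 and 0.18 did not pass the threshold. MYC stood lower with both than the single changes sum to (interaction -0.96, adjusted p = 0.00103). The exceptions were FOS (1.10), EPHA2 (0.69), SPRED1 (0.47) and SPRED3 (0.27), which rose, and EPHA4 (-0.18) and CXCL8 (0.02), which did not pass the test. SPRED1 and SPRED3 encode inhibitors of the pathway and FOS an immediate early AP-1 subunit. The list's median was -2.0 with the inhibitor alone and 0.389 with the hairpin alone.

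Every measured gene of the mitosis and DNA replication lists fell. All 28 mitosis genes passed the test downward, 27 of them by at least 2-fold, with a median of -1.77 and a range from -2.37 to -0.727. The spindle checkpoint gene MAD2L1 read 9.29 and 9.44 in untreated cells and 6.81 and 7.17 with both perturbations (-2.37 ± 0.12, limma adjusted p = 5.32e-08). The mitotic kinase gene CDK1 went from 9.13 and 9.41 to 6.59 and 7.27 (-2.34 ± 0.18), and the checkpoint kinase genes BUB1B (-2.20 ± 0.12) and TTK (-2.12 ± 0.13) fell alike. These falls are those of bulk RNA, in which fewer cells in a phase and less RNA per cell cannot be told apart. The 2 arrays with both perturbations differed somewhat here: 25 of the 28 genes were lower in A than in B, as were 23 of 28 in the untreated arrays. The median level of the list was 9.93 and 9.98 in the untreated arrays A and B and 7.92 and 8.20 with both perturbations, and all 28 genes were called with any of the 8 arrays left out.

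Of the 35 measured DNA replication genes all fell, 34 of them by at least 2-fold, with a median of -1.64 and a range from -3.41 to -0.859. Here too most genes were lower in A than in B, 32 in the untreated arrays and 26 with both perturbations. UHRF1 is counted here through its brighter probe set, while its probe sets were called in opposite directions. POLE2 read 8.19 and 8.47 in untreated cells and 4.70 and 5.14 with both perturbations. CDC6 read 10.08 and 10.26 against 6.84 and 6.90, and MCM10 8.93 and 9.0 against 5.71 and 5.94. The ribonucleotide reductase subunit gene RRM2 fell from 9.86 and 10.20 to 6.93 and 7.39 (-2.87 ± 0.15). Each of these genes averaged between its untreated and its combined level with either perturbation alone. POLE2 for example averaged 6.78 with the hairpin and 6.49 with the inhibitor, and its interaction was -0.03 (limma adjusted p = 0.945). In the mitosis list 9 genes fell by less than the single changes sum to and 0 by more, and in the replication list 5 and 1, against 6.97% of all genes above the sum and 4.85% below it. The counts behind these shares, 1283 and 893 genes, were 702 and 576 without array B of the hairpin alone.

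Many but not all promoters of these genes hold the motifs known from cell cycle genes, and an example of each list is printed, with the motif in capitals. The sequences are RefSeq windows on GRCh38.p14 from 250 bases before to 50 bases after the start of the gene, and 14228 of the measured genes had such a window. The CHR element (TTTGAA on either strand) stood in 17 of 24 windows of mitosis genes (70.8%), against 15.2% of all 35116 windows and 11.9% of those of measured genes. The E2F core (GCGGGAA on either strand) stood in 15 of 32 windows of replication genes (46.9%), against 6.55% of all windows and 8.95% of those of measured genes. Scans for the AP-1 and ATF4 motifs matched few windows of their lists, though the shares (14.3%, 15% and 11.8%) exceeded those of measured genes. AP-1 (TGANTCA) stood in 2 of 14 windows of the MAPK output list and 3 of 20 of the invasive list, against 5.58% of measured genes. The ATF4 motif (TGATGCAA) stood in 2 of 17 windows of the ATF4 and ER stress list, against 0.731%. A match is a description of letters and not evidence of binding. MAD2L1 (chr4:120066799-120067098, minus strand, CHR at position 25 from the start) and the GINS complex gene GINS2 (chr16:85688905-85689204, minus strand, E2F core at position -31), whose combined changes were -2.37 and -2.54, are shown 5′ to 3′ along the gene.
MAD2L1: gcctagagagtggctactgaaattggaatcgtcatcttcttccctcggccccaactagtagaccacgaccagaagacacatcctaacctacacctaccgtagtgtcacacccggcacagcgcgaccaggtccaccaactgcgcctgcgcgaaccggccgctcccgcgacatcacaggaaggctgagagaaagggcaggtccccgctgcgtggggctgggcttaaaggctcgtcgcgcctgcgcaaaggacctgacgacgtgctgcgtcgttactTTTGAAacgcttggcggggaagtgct
GINS2: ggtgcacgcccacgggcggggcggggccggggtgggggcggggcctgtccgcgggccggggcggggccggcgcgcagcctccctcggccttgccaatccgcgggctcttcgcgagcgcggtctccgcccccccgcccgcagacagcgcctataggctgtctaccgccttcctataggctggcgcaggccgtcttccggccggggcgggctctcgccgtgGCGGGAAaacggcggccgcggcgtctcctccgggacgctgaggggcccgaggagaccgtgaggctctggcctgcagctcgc

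Upstream of these lists, 10 of 18 measured G1 genes fell and 4 rose. The cyclin gene CCNE2 fell most (-2.56 ± 0.13), followed by CCND1, by the kinase gene CDK2 (-1.58 ± 0.094) and by E2F1 (-1.36 ± 0.11), which encodes the transcription factor that drives S phase genes. The rises were small and concerned the inhibitor genes CDKN1A (0.50), CDKN1C (0.40) and CDKN1B (0.28) and the cyclin gene CCND3 (0.29). CDKN1B read 9.77 and 9.81 in untreated cells and 10.05 and 10.08 with both (0.28 ± 0.077, limma adjusted p = 0.0121). Its call was lost without untreated array A (0.25), without array B of both perturbations (0.26) and with arrays centred on their medians (0.16). Only 2 members of the list rose without untreated array A, and 2 with centring. With the inhibitor alone CDKN1B averaged 10.56, and its interaction was -0.52 (adjusted p = 0.0106).

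Of 22 measured p53 targets 14 rose and 3 fell, with a median of 0.449. The oxidoreductase gene TP53I3 (1.64 ± 0.086), the RNA-binding protein gene ZMAT3 (1.21 ± 0.099) and PHLDA3 (1.14 ± 0.086), an inhibitor of AKT signalling, rose most, and the stress cytokine gene GDF15 fell from 12.81 and 12.89 to 11.61 and 11.46 (-1.31 ± 0.095). MDM2 (0.14) and BAX (-0.04) did not pass the test. The BCL2 family split between its members. Of 15 measured genes 5 rose and 6 fell, against 27.1% and 21.5% of all genes. The BH3-only death gene BMF read 6.59 and 6.58 in untreated cells and 9.69 and 9.63 with both perturbations (3.07 ± 0.088, 8.42-fold), above its average of 9.08 with the inhibitor alone and 6.39 with the hairpin alone. BCL2L11, which encodes BIM, rose less, from 6.85 and 7.10 to 7.65 and 7.77 (0.74 ± 0.098). The death gene PMAIP1, which encodes NOXA, moved the other way (-2.40 ± 0.14), as did the survival genes BCL2A1 (-1.03 ± 0.093) and BCL2L1 (-0.65). Genes that promote death thus stood on both sides, as BBC3 (0.54) and BAD (0.39) rose and BID (-0.53), HRK (-0.47) and BAK1 (-0.39) fell. BCL2 itself (0.49) rose among the survival genes.

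Interferon-stimulated genes rose together. Of 34 measured members 32 rose and 0 fell, 28 of them by at least 2-fold, with a median of 1.7. The antiviral gene IFIT1 read 7.97 and 7.82 in untreated cells and 11.42 and 11.19 with both perturbations (3.41 ± 0.32, limma adjusted p = 6.13e-06). IFIT2 read 5.36 and 5.59 against 9.35 and 9.29, and XAF1 5.76 and 5.43 against 9.09 and 8.81 (3.36 ± 0.21). IFI44L rose by 3.30 ± 0.30, and the chemokine gene CXCL10, a ligand of CXCR3, from 4.63 and 4.67 to 7.17 and 7.13 (2.50 ± 0.079). HERC5 (-0.23) and MX1 (0.17) did not pass the test, and 1 member fell without array A of both perturbations. The median change of the list was 2.07 with the hairpin alone and 0.204 with the inhibitor alone. The combined change was below the sum of the single changes at 15 of the 34 genes and above it at 0. Of all genes 4.85% were below the sum and 6.97% above it. CXCL10 averaged 9.04 with the hairpin alone, above its level with both (interaction -1.25, limma adjusted p = 4.2e-05). Of 11 antigen presentation genes 7 rose and 0 fell, led by the peptide transporter gene TAP1 (1.23 ± 0.12), the peptidase gene ERAP1 (1.20 ± 0.079), B2M (0.88 ± 0.086) and the loading factor gene TAPBP (0.88 ± 0.098).

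The IRF core (GAAANNGAA on either strand) stood in 20 of 28 promoter windows of interferon-stimulated genes (71.4%), against 8.11% of all windows and 6.83% of those of measured genes. IFIT1 (chr10:89392373-89392672, plus strand) is shown because it rose most among the members whose window holds the motif, which lies at positions -115 and -102, read here from the opposite strand.
IFIT1: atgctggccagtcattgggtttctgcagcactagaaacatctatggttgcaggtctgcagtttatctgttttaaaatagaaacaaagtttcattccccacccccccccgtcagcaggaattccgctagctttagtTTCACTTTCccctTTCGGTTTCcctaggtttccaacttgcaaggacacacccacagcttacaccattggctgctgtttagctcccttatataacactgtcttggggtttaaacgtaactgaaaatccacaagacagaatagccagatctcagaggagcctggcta

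NF-kB and inflammatory genes did not move as a group: of 19 measured, 7 rose and 5 fell, against 27.1% and 21.5% of all genes. The median of 0.02 turned to -0.09 with centred arrays. The cytokine gene IL24 read 5.91 and 6.25 in untreated cells and 9.36 and 9.69 with both perturbations, against averages of 7.70 with the hairpin alone and 5.72 with the inhibitor alone (interaction 2.19, limma adjusted p = 0.000581). The monocyte chemokine gene CCL2 rose by 2.73 ± 0.11 and the NF-kB inhibitor gene NFKBIA by 1.59 ± 0.091. The NF-kB feedback gene TNFAIP3 fell by 1.36 on the log2 scale, and the chemokine gene CCL20 by 0.94. CXCL1 (-0.14), CXCL2 (0.02), CXCL3 (-0.08) and IL6 (0.12) did not pass the test.

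Pigment genes moved in both directions. Of 22 measured genes of pigment enzymes and melanosomes 8 rose and 9 fell, and the median of 0.04 turned to -0.07 with centred arrays. The melanosome gene MREG fell from 9.02 and 9.04 to 6.97 and 7.08 (-2.01 ± 0.082), the transporter gene SLC45A2 from 8.61 and 8.80 to 6.62 and 6.90 (-1.94 ± 0.11), and RAB27A, which carries melanosomes along actin, from 8.35 and 8.35 to 6.68 and 7.24 (-1.39 ± 0.15). The amino acid transporter gene SLC7A5 fell by 1.30 on the log2 scale. The melanosome channel gene TPCN2 rose most (0.95 ± 0.080). TYRP1, an enzyme of melanin synthesis, rose from 8.08 and 8.20 to 9.03 and 9.10 (0.93 ± 0.098, limma adjusted p = 1.44e-05). Tyrosinase, TYR, rose from 10.88 and 10.99 to 11.45 and 11.52 (0.55 ± 0.088). The melanosome fibril gene PMEL fell from 12.61 and 12.59 to 12.10 and 12.04 (-0.53 ± 0.10), and the melanocyte antigen gene MLANA from 6.17 and 6.30 to 5.76 and 5.79 (-0.46 ± 0.095). The synthesis enzymes TYR and TYRP1 were thus higher than in untreated cells, while among genes of melanosome transport RAB38 (0.42) and RAB32 (0.38) rose and RAB27A, MLPH (-0.60) and MYO5A (-0.57) fell.

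The median change of the pigment list was -0.74 with the hairpin alone and 0.717 with the inhibitor alone. TYRP1 averaged 5.58 with the hairpin alone and 10.21 with the inhibitor alone, and its combined change exceeded the sum by 1.41 (limma adjusted p = 7.64e-05). SLC45A2, in contrast, averaged 8.43 and 9.52 with the hairpin and the inhibitor alone and stood below both with the 2 together (interaction -2.49, adjusted p = 3.84e-06). For the list as a whole 11 of 22 genes were below the sum and 3 above it, against 4.85% and 6.97% of all genes. The channel gene TRPM1, a classical MITF target, read 5.42 and 5.32 in untreated cells and 5.43 and 5.21 with both perturbations, a change of -0.05 ± 0.099 that did not pass the threshold (adjusted p = 0.726). It averaged 8.75 with the inhibitor alone and 4.97 with the hairpin alone, and its interaction was -3.03.

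Other reported MITF targets were mostly lower: of 18 measured 10 fell and 3 rose, with a median of -0.305. The receptor gene MET read 10.01 and 10.04 in untreated cells and 8.08 and 7.93 with both perturbations (-2.02 ± 0.092, limma adjusted p = 2.52e-08), whereas it averaged 11.39 with the inhibitor alone and 9.12 with the hairpin alone. PPARGC1A, the coactivator of mitochondrial biogenesis, fell from 8.17 and 8.20 to 6.70 and 6.97 (-1.35 ± 0.16). With the hairpin alone PPARGC1A averaged 5.37 and with the inhibitor alone 9.54, and its interaction was 0.11 (adjusted p = 0.834). CDK2 and CEACAM1, an adhesion molecule (-1.45 ± 0.10), were the other largest falls. BCL2 (0.49), STX7 (0.32) and TBX2 (0.31) rose, of which 1 was left with centred arrays.

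The M-box core (TCATGTG or TCACGTG on either strand) is an extended E-box that MITF and its relatives TFEB and TFE3 bind. It stood in 6 of 18 promoter windows of pigment genes (33.3%) and 5 of 13 of the other targets (38.5%). The share was 6.52% over all windows and 6.85% over those of measured genes. The core also stood in 7 of 20 windows of lysosome genes (35%). Of the last list 19 of 27 measured genes rose and 2 fell, with a median of 0.365. The acid glucosidase gene GAA rose from 7.66 and 7.54 to 8.88 and 8.89 (1.28 ± 0.085), followed by the autophagy gene GABARAPL1 (1.12 ± 0.083), the sulfatase gene ARSA (1.07 ± 0.086) and TFE3 (0.74 ± 0.089). NPC1 (-0.45) and ATP6V1H (-0.32) fell, and 1 of these falls was lost without array A of both perturbations and without untreated array B. TYRP1 (chr9:12693135-12693434, plus strand, M-box at -145) and GAA (chr17:80101331-80101630, plus strand) are shown as the members with the motif that changed most among the called pigment and lysosome genes. In GAA the motif is read on both strands at 2 places, the first at -77 and the last at -31.
TYRP1: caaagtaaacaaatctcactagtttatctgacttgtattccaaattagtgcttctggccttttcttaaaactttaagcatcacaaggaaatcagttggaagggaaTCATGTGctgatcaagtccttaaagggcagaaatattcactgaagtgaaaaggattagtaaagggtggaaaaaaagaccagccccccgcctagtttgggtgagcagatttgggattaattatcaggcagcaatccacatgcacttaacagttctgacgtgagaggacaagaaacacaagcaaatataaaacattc
GAA: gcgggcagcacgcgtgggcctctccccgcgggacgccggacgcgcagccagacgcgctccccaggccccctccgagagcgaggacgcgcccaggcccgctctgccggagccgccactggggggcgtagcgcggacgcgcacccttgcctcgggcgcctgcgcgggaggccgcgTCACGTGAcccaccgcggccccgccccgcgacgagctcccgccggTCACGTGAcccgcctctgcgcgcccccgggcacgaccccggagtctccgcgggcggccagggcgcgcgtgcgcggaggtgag

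Regulators of the neural crest and melanocyte lineage were mostly higher. Of 20 measured genes 14 rose and 2 fell, with a median of 0.535. NGFR read 7.15 and 7.12 in untreated cells and 10.57 and 10.62 with both perturbations (11-fold). The neural crest factor gene FOXD3 rose from 7.16 and 6.83 to 10.24 and 10.13 (3.20 ± 0.11, 9.16-fold), above its averages of 7.53 with the hairpin alone and 8.04 with the inhibitor alone (interaction 1.62, limma adjusted p = 7.9e-05). SOX2 rose by 1.69 ± 0.11, RXRG by 1.24 and SOX10 by 0.64 ± 0.097, while the WNT effector gene LEF1 (-2.10 ± 0.084) and MC1R (-0.41) fell. Only 1 member fell without array B of either group. Of 7 EMT transcription factors 3 rose and 3 fell, split by paralog: ZEB2 (1.35 ± 0.080) and SNAI2 (0.94 ± 0.091) rose, and ZEB1 (-1.45 ± 0.095) and SNAI1 (-1.16 ± 0.092) fell. ZEB1 read 8.12 and 8.21 in untreated cells and 6.64 and 6.78 with both, and ZEB2 10.53 and 10.56 against 11.86 and 11.91.

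Glial and myelin genes rose at 11 of 15 measured members and fell at 2. ASPA, which breaks down N-acetylaspartate in oligodendrocytes, rose from 7.46 and 7.43 to 10.78 and 11.01 (3.44 ± 0.10), close to its average of 10.60 with the inhibitor alone. The adhesion gene CDH19 rose by 1.31 ± 0.089 and S100B by 1.00 ± 0.084, whereas the fatty acid carrier gene FABP7 (-2.11 ± 0.15) and the connexin gene GJB1 (-1.50 ± 0.092) fell.

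The list of the invasive state with low MITF moved in both directions, with 10 of 26 measured genes higher and 7 lower. After JUN, the AP-1 gene FOSL2 rose by 1.75 ± 0.078 and the matricellular gene CCN1 by 1.61 ± 0.11. FOSL2 averaged 7.56 and 6.96 with the inhibitor and the hairpin alone and stood at 8.91 in both arrays with the 2 together (interaction 1.56). The collagenase gene MMP1 (-1.68 ± 0.095), FOSL1 (-0.98) and CCN2 (-0.52) fell. The receptor tyrosine kinase gene AXL read 8.06 and 8.19 in untreated cells and 9.45 and 9.47 with both perturbations (1.33 ± 0.080, 2.52-fold). AXL averaged 10.22 with the hairpin alone and 7.27 with the inhibitor alone, and its interaction of 0.10 did not pass the threshold. Of the 24 measured receptor tyrosine kinases and adaptors 9 rose and 4 fell, where 27.1% of all genes rose and 21.5% fell. The adaptor genes GAB1 (1.35 ± 0.093) and IRS2 (1.29 ± 0.083) rose, and MET fell.

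In the activin and TGF-beta pathway 14 of 27 measured genes rose and 3 fell, with 6 falling in centred arrays and 1 without array A of both perturbations. The activin antagonist gene FST rose from 6.68 and 6.71 to 9.71 and 9.92 (3.12 ± 0.091, 8.7-fold). The activin subunit gene INHBA fell from 8.72 and 8.96 to 7.41 and 7.41 (-1.43 ± 0.11). RNA of this subunit gene was thus lower and that of the antagonist gene higher than in untreated cells, and protein was not measured. The receptor genes TGFBR2 (2.03 ± 0.090) and TGFBR3 (1.48 ± 0.087) were higher. With the hairpin alone FST averaged 11.24 and INHBA 11.58, and INHBA stood well below the sum of the single changes (interaction -1.88, limma adjusted p = 2.68e-05).

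Matrix and adhesion genes were mostly higher. Of 20 collagen genes 14 rose and 1 fell, with a median of 0.79. COL5A2, a fibrillar collagen, rose from 6.21 and 6.30 to 8.79 and 8.73 (2.51 ± 0.081), followed by COL8A1 (1.47 ± 0.082), COL9A3 (1.35 ± 0.088) and the basement membrane collagen COL4A1 (1.17 ± 0.081), and COL1A2 fell (-0.70 ± 0.083). Of 21 integrins and laminins 12 rose and 4 fell. The collagen receptor gene ITGA2 read 8.21 and 8.29 in untreated cells and 10.88 and 10.91 with both perturbations (2.64 ± 0.081). ITGA2 averaged 8.43 with the hairpin alone and 7.83 with the inhibitor alone, so its interaction of 2.89 exceeded the combined change itself (limma adjusted p = 4.08e-07). ITGA10 (1.43 ± 0.094), LAMB2 (1.42 ± 0.093) and LAMA4 (1.34 ± 0.091) also rose. Among 21 semaphorins and plexins, which guide axons and migrating cells, 11 rose and 6 fell, with the largest rises at PLXNB1 (1.89 ± 0.079), SEMA3C (1.76 ± 0.099), SEMA3E (1.75 ± 0.14) and SEMA3B (1.62 ± 0.086).

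Genes of biosynthesis and energy metabolism were lower. All 23 measured genes of ribosome biogenesis, MYC included, fell, with a median of -1.13; the pseudouridine synthase gene DKC1 (-1.93 ± 0.11), NOLC1 (-1.63 ± 0.097) and the RNA polymerase I subunit gene POLR1B (-1.6 ± 0.083) followed MYC. Of 22 glycolysis and lactate genes 20 fell, with a median of -0.86. The pyruvate dehydrogenase kinase gene PDK1 fell from 10.80 and 10.82 to 8.30 and 8.25 (-2.54 ± 0.081), and the hexokinase gene HK2 from 10.37 and 10.32 to 7.87 and 8.0 (-2.40 ± 0.085), followed by PFKP (-2.08 ± 0.081) and ENO2 (-1.71 ± 0.084). PFKFB2 (0.27) rose, and that call was lost without either array of both perturbations, without untreated array A and with centring.

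Of 23 sterol and fatty acid synthesis genes 17 fell, with a median of -0.617. The median of the list was -0.23 with the hairpin alone and -0.012 with the inhibitor alone. Below the sum of the single changes stood 11 of the 23 genes and above it 0, against 4.85% and 6.97% of all genes. The elongase gene ELOVL6 (-2.17 ± 0.12), the sterol reductase gene DHCR7 (-1.97 ± 0.094), the squalene epoxidase gene SQLE (-1.45 ± 0.081) and MSMO1 (-1.36 ± 0.12) fell most. SQLE read 10.45 in both untreated arrays and 8.93 and 9.05 with both perturbations, against averages of 10.21 with the inhibitor alone and 10.25 with the hairpin alone (interaction -1.01, limma adjusted p = 0.000208). FADS2 (0.25) rose, and that call was lost without any 1 of the arrays with the hairpin or of the untreated arrays.

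Mitochondrial genes fell by less. Of 30 respiratory chain and ATP synthase genes 22 fell and 0 rose, with a median of -0.358, and the list of the TCA cycle and of mitochondrial regulators held 18 falls and 0 rises among 22 measured genes, with a median of -0.418. The cytochrome oxidase gene COX7B (-1.03 ± 0.11) fell most in the first list, followed by CYC1 (-0.99 ± 0.083), COX10 (-0.89 ± 0.095) and CYCS (-0.75 ± 0.077). A second, dimmer probe set of NDUFV2 fell by 1.79 on the log2 scale, against -0.67 in the one used. The mitochondrial rRNA methyltransferase gene TFB1M fell from 8.97 and 9.06 to 5.68 and 6.35 (-3.0 ± 0.17). PPRC1, a relative of PPARGC1A, fell by 1.21 on the log2 scale and the mitochondrial transcription factor gene TFAM by 1.20. Genes of the ATF4 and ER stress response did not move together, with 5 of 18 higher and 7 lower, against 27.1% and 21.5% of all genes. ATF3 (1.83 ± 0.14) and the chaperone gene DNAJB9 (1.42 ± 0.12) rose, the cystine transporter gene SLC7A11 (-1.76 ± 0.15) and the serine synthesis gene PHGDH (-1.52 ± 0.081) fell, and the probe sets of ATF4 disagreed, the one used reading 0.00 and the other, of like brightness, a called rise of 0.52.

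**Figure D2:**
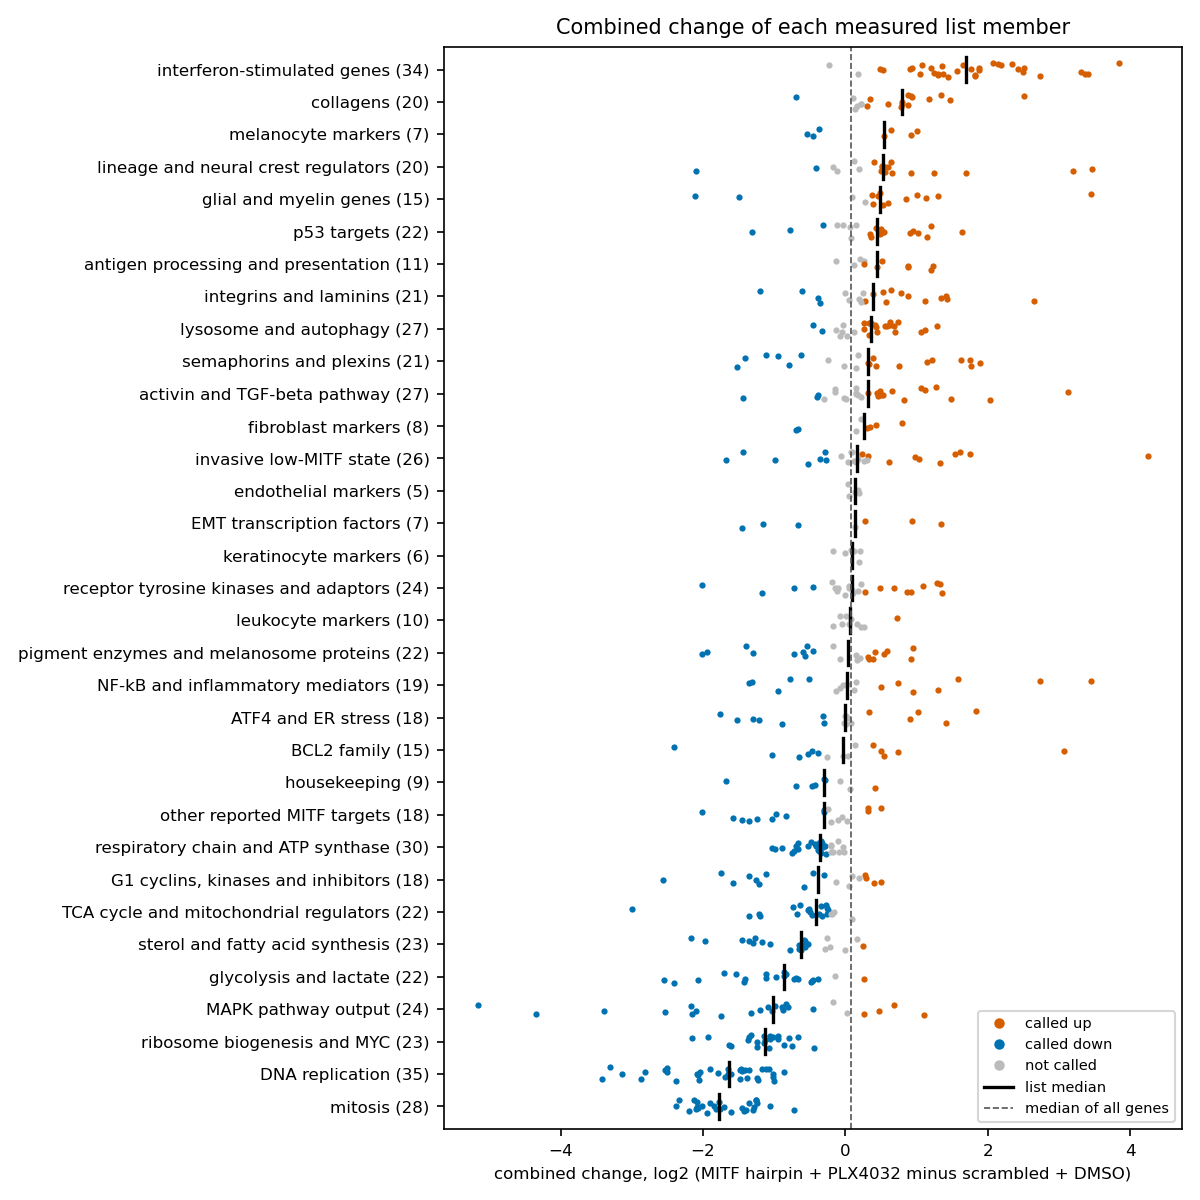
Combined change on the log2 scale (x axis) of each measured member of the gene lists (y axis, measured members in parentheses), coloured by call at adjusted p under 0.05, with a bar at each list's median and a dashed line at the median of all genes, 0.0829. All 28 mitosis and all 35 DNA replication genes lie left of 0 and are called, and 32 of 34 interferon-stimulated genes are called on the right.

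**Figure D3:**
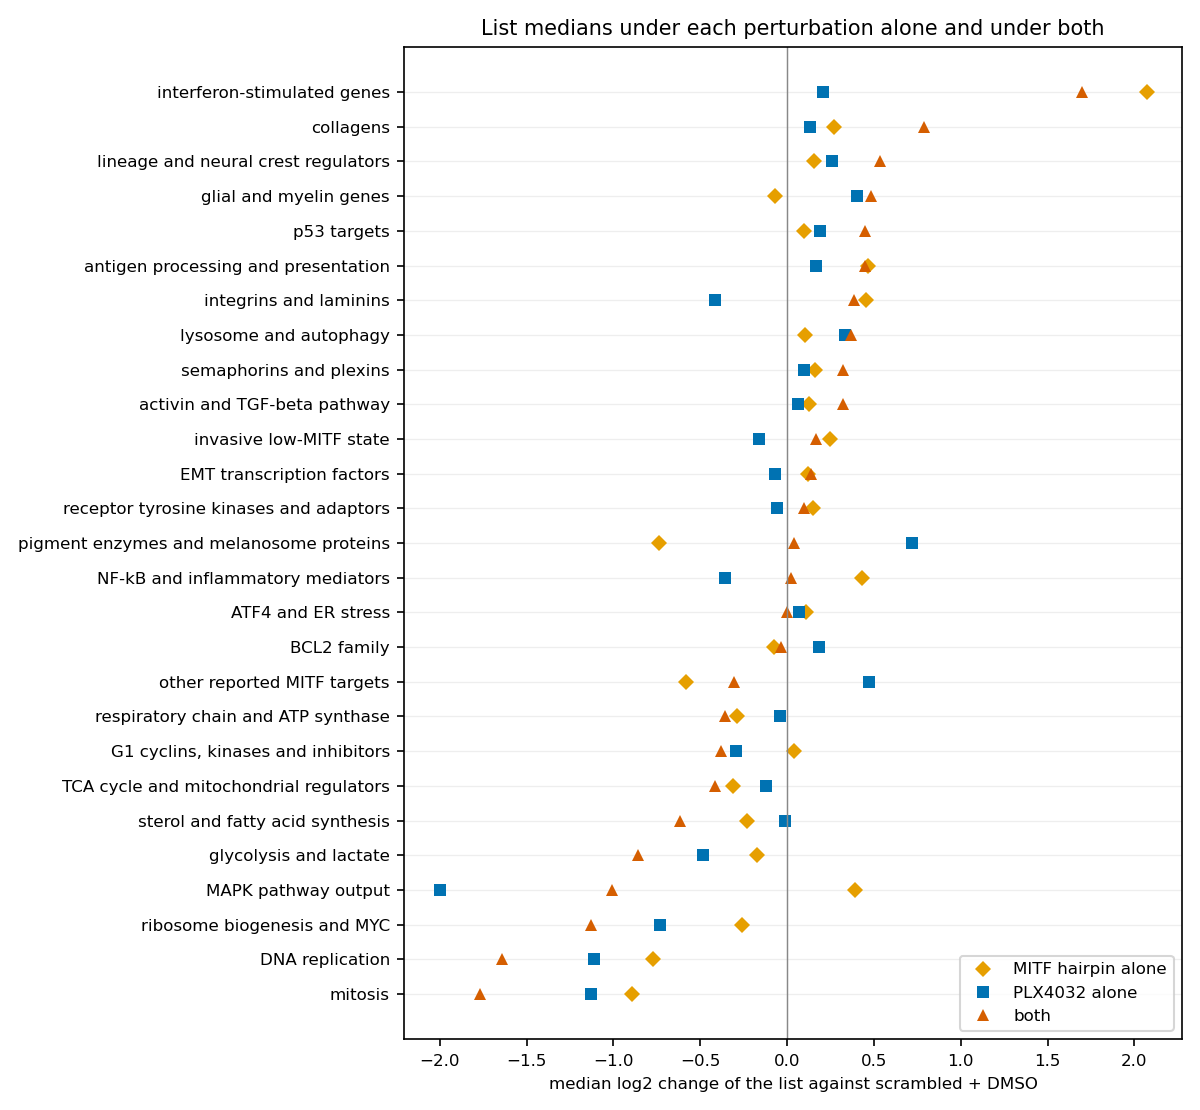
Median log2 change of each list (y axis) against untreated scrambled cells with the MITF hairpin alone, with PLX4032 alone and with both (x axis); the 3 comparisons share the untreated arrays. The pigment list stands at -0.74 and 0.717 with the single perturbations and near 0 with both, and the interferon-stimulated list at 2.07, 0.204 and 1.7.

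The labelled cell type was checked against its markers. S100B (11.57 and 11.55 in untreated cells, 12.60 and 12.53 with both), SOX10 (10.44 and 10.36, then 11.05 and 11.03), TYR and PMEL were bright in all 4 arrays, and MLANA read between 5.76 and 6.30. Of 7 measured melanocyte markers 4 rose and 3 fell. No keratinocyte (0 of 6) or endothelial (0 of 5) marker passed the test with all arrays. Without untreated array A 1 keratinocyte marker, IVL (0.40), and 2 endothelial markers, CDH5 (0.38) among them, were called higher, and without untreated array B or with centring 1 keratinocyte marker was called lower. The median level of the 10 leukocyte markers was 4.28 and 4.31 in the untreated arrays and 4.30 and 4.34 with both perturbations. CD14 was the only one of them to rise (0.72 ± 0.11, from 4.84 and 4.73 to 5.61 and 5.41), and 2 rose without untreated array A or without array B of both perturbations. Of 8 fibroblast markers COL3A1 (0.79 ± 0.10), LUM (0.44 ± 0.085), COL1A1 (0.34) and DCN (0.30) rose, and COL1A2 and FAP (-0.66 ± 0.081) fell, with 2 rises left in centred arrays. Their median level was 5.66 and 5.62 in untreated arrays and 5.61 and 5.57 with both, although LUM was bright at 9.30 and 9.45 in untreated cells. Whether other cells had a part in the results was not tested. Of 9 housekeeping genes 6 fell and 1 rose, with a median of -0.295. HPRT1 fell from 9.11 and 9.38 to 7.51 and 7.64 (-1.67 ± 0.11), PGK1 by 0.69 on the log2 scale, TBP by 0.47 and PPIA by 0.42, while ACTB (-0.07) and POLR2A (0.07) did not pass the test.

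Across all genes the hairpin average was called up at 20.7% and down at 22.4%, and the inhibitor average up at 23.9% and down at 19.5%. With centred arrays the hairpin average split as 2391 up and 5321 down, against 3807 and 4130. The averages add up to the combined change. The 6 genes whose averages were both largest upward were CCDC146 (2.36 and 2.23 for hairpin and inhibitor), MATN2 (2.16 and 2.48), TCN1 (2.36 and 1.82), RFTN2 (1.78 and 2.37), NAALADL2 (1.68 and 1.72) and JUN (1.6 and 2.65). NAALADL2, a peptidase-like gene, rose from 3.46 and 3.77 to 6.98 and 7.05. The 6 largest downward were SPATS1 (-2.10 and -1.67), POLE2 (-1.56 and -1.85), the cell cycle phosphatase gene CDC25A (-1.51 and -1.49), CLSPN (-1.44 and -2.07), CDCA7 (-1.43 and -1.35) and ARHGAP11A (-1.35 and -1.31). Apart from SPATS1, the falling genes are known from the cell cycle. CDC25A went from 8.55 and 8.58 in untreated cells to 5.54 and 5.59 with both, CDCA7 from 7.92 and 8.05 to 5.24 and 5.18, and ARHGAP11A from 9.26 and 9.51 to 6.63 and 6.81. As these genes were picked for their averages, the values describe them and test nothing.

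**Figure D4:**
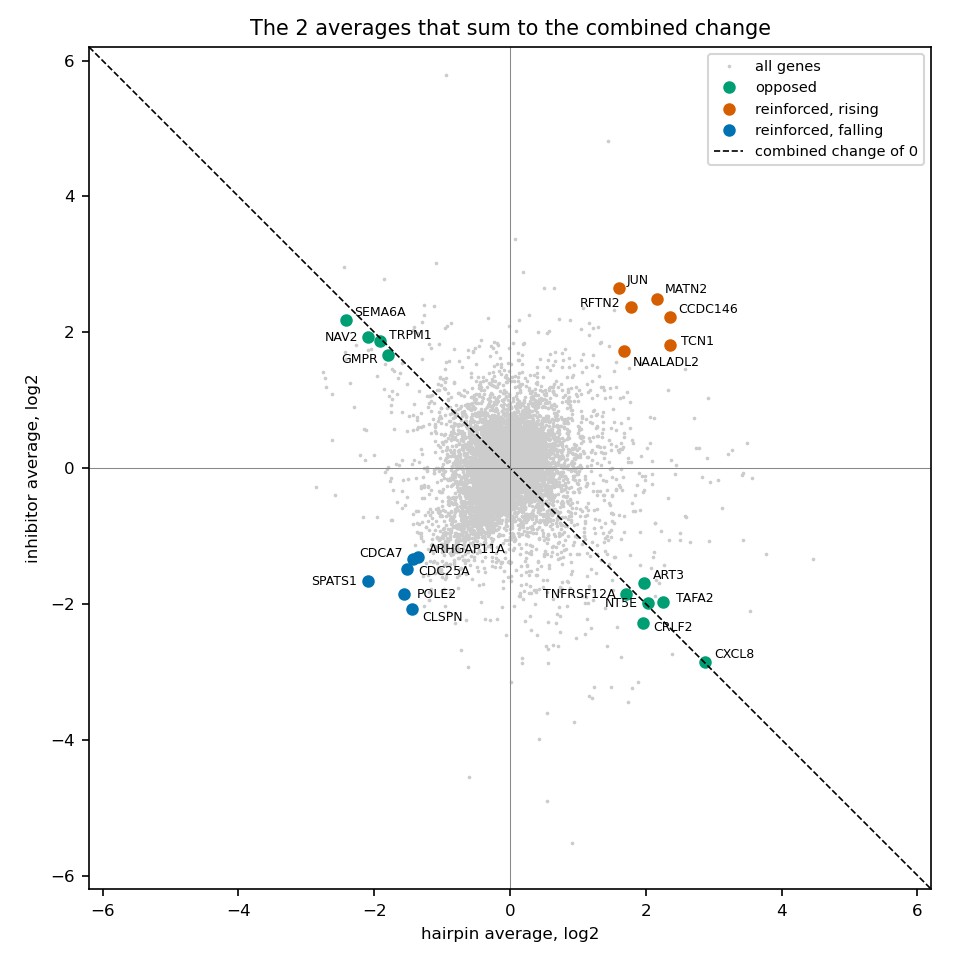
Hairpin average (x axis) against inhibitor average (y axis), both in log2 units, for all 18404 genes in grey, with the opposed genes and the genes reinforced in each direction named. On the dashed line the averages cancel; CXCL8 lies on it at 2.88 and -2.86, and MATN2 lies far from it at 2.16 and 2.48.

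A second set of genes was chosen for large averages of opposite sign and a combined change that did not pass the threshold. That they read nearly the same in untreated cells and with both perturbations follows from this choice. The neutrophil chemokine gene CXCL8 read 7.86 and 8.21 in untreated cells and 8.05 and 8.06 with both, with a hairpin average of 2.88 and an inhibitor average of -2.86. Its combined change of 0.02 ± 0.11 did not pass the threshold (limma adjusted p = 0.894) and took either sign when an array was left out or arrays were centred. The ectonucleotidase gene NT5E behaved alike, at 9.83 and 9.94 against 9.94 and 9.92 (0.04 ± 0.080). The axon guidance gene SEMA6A had averages of the opposite signs, -2.41 and 2.17, and read 9.14 and 9.08 in untreated cells against 8.92 and 8.82 with both (-0.24 ± 0.12). The others were TAFA2 (0.29), CRLF2 (-0.32), NAV2 (-0.16), TRPM1 (-0.05), the TWEAK receptor gene TNFRSF12A (-0.15), ART3 (0.29) and the guanine nucleotide enzyme gene GMPR (-0.13). By the choice, none of them passed the threshold in the fit of 8 arrays. A p that misses the threshold does not show equal levels, and SEMA6A, CRLF2, NAV2 and TNFRSF12A were called lower with centred arrays. Leaving out array A of both perturbations or untreated array B made CRLF2 called lower (-0.50 and -0.46) and TAFA2 called higher (0.40 and 0.41). ART3 was called higher, at the same 0.29, with the 4 arrays compared alone and without either array of the inhibitor alone.

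These genes differed in their single changes. For CXCL8, TAFA2 and NAV2 the interaction did not pass the threshold. NAV2 averaged 5.90 with the hairpin alone and 9.92 with the inhibitor alone. CRLF2 read 3.98 and 3.71 in untreated cells, averaged 7.55 with the hairpin alone and 3.32 with the inhibitor alone, and read 3.71 and 3.35 with both (interaction -3.50, limma adjusted p = 2.26e-06). GMPR and TRPM1 averaged 9.54 and 8.75 with the inhibitor alone and 6.08 and 4.97 with the hairpin alone. TNFRSF12A averaged 7.82 with the inhibitor alone but 10.67 in both arrays with the 2 perturbations together, near its 10.83 and 10.82 in untreated cells (interaction 2.31).

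**Figure D5:**
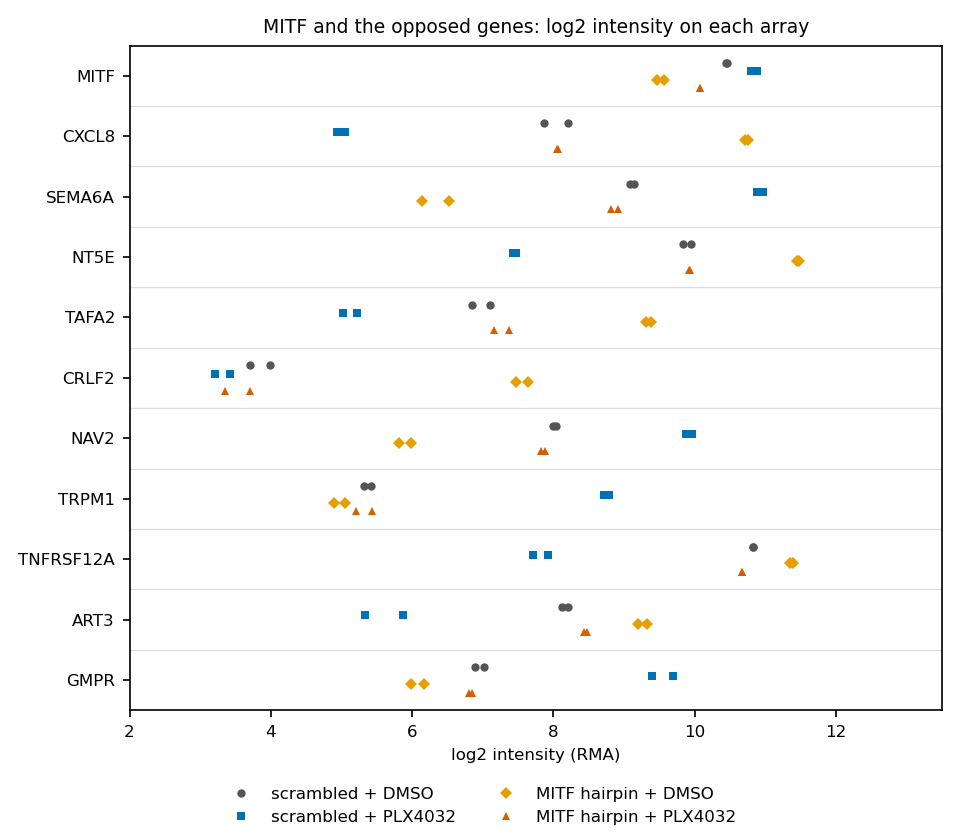
Log2 intensity (x axis) of MITF and the 10 opposed genes (y axis) on each of the 8 arrays, with symbols for the 4 groups. CXCL8 stands at 7.86 and 8.21 in untreated cells and 8.05 and 8.06 with both perturbations, while MITF stands at 10.07 and 10.08 with both, below its untreated 10.44 and 10.46.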

How the data were processed

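RNA of 8 COLO829 samples was hybridised to Affymetrix arrays, 1 per sample. Per the submitters' processing notes the deposited log2 values come from RMA, whose version is not stated. A genome build is not given in the sources used here. RMA gives all arrays a like distribution, which takes out a shift shared by most genes, and changes of dim or very bright probe sets come out too small. Values ran from 2.1 to 13.53. Of 32321 probe sets, 19158 had 1 symbol, 1388 several and 11775 none, and 19128 matched a RefSeq gene by identifier. The brightest probe set stood for each of 637 genes with several, which gave 18404 genes; 18 genes had probe sets called in opposite directions. No detection calls were used, so a low level is not absence. Levels of different genes were set side by side only roughly, for ANGPTL7 beside the leukocyte markers and where markers were called bright. limma 3.58.1 (R 4.3.3) fitted a mean per group over 8 arrays with 4 residual and 6.73 prior degrees of freedom, two-sided, with Benjamini-Hochberg adjustment. The script was tested on simulated data. The number of arrays limits precision (median SE 0.0939, and 0.133 for the interaction).

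The comparison, the gene lists and the genes named were chosen with earlier results of these data known, and the lists support no claim of independence. Named are MITF, the 15 largest called rises and falls with groups apart, up to 4 largest called members of each list (2 if none passed), 14 fixed genes, the 10 most opposed genes and the 6 most reinforced in each direction. Opposed genes had both averages called with opposite sign and a combined change that was not called. Reinforced genes had both averages and the combined change called in one direction. Further members were named to show exceptions after their values were seen. Samples with the same letter deviated together to a degree between the groups compared (r of 0.329) but not between other pairs of groups (-0.094 to -0.00653). Letters were not used as pairs in the main fit. Alternatives were the 4 arrays alone, repeated quantile normalization, centring on medians, leaving out the dimmest 40% of genes, the mean of a gene's probe sets, trended and robust eBayes, a replicate block, and each array left out.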

Additional observations from a re-analysis of the deposited data

Results flagged for a closer look

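Of the 56 genes named by size or by the fixed list, 34 had a combined change that differed from the sum of the changes with the hairpin alone and with the inhibitor alone (limma interaction, adjusted over 18404 genes). Most of the 56 were picked for large changes or averages on these same arrays, so their count tests nothing. Interactions quoted above for other list members, ITGA2 and SLC45A2 among them, lie outside this count and outside the rule for reporting interactions. Of the 34, 14 stood above the sum and 20 below it, where 6.97% and 4.85% of all genes were called above and below the sum. Above it stood SPATS1 (2.82), TNFRSF12A (2.31), IL24 (2.19), CCDC146 (2.12), ANGPTL7 (2.01), ART3 (1.76), NGFR (1.61), SLC35F1 (1.39), MME (1.07), NAALADL2 (1.05), MOXD1 (1.02), NT5E (0.90), JUN (0.73) and SEMA6A (0.72). Below it stood CRLF2 (-3.50), TRPM1 (-3.03), GMPR (-1.84), RFTN2 (-1.76), TM4SF1 (-1.45), ETV5 (-1.30), CXCL10 (-1.25), ETV4 (-1.20), MRGPRX4 (-1.18), KCNJ13 (-1.09), CDC6 (-1.07), MYC (-0.96), GRAMD1B (-0.90), MLANA (-0.86), SLC27A3 (-0.84), SPRY4 (-0.80), KCNG4 (-0.78), SCRG1 (-0.65), CDKN1B (-0.52) and TYR (-0.44). A value above the sum can belong to a gene that fell: SPATS1 averaged 4.89 with the hairpin alone, 5.33 with the inhibitor alone and 4.72 and 4.55 on the arrays with both, from 8.26 and 8.54 in untreated cells. Its single changes were -3.51 and -3.08. Their sum would take it below 2.1, the lowest value on any array. The arrays with both stood above 2.1, and what set this interaction was not tested. The limit given for ANGPTL7 also holds for MME, low with the hairpin alone, and NAALADL2, low in untreated cells.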

How the results depend on the processing

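With arrays centred on their medians 3171 genes were called up in the combined comparison and 2391 in the hairpin average; CXCL8 then read -0.092 and NT5E -0.071, against 0.02 and 0.04. The interaction was called up at 702 to 1359 genes and down at 543 to 821 with an array left out. It was called down at 543 without array A and at 576 without array B of the hairpin alone and at 548 without array A of the inhibitor alone, and up at 702 without array B of the hairpin alone and 828 without array B of the inhibitor alone. The cause was not tested; these fits hold fewer samples. Leaving out an array moved CXCL8 between -0.15 and 0.19, NT5E between -0.014 and 0.097, TRPM1 between -0.15 and 0.063, and CDH5 between -0.0018 and 0.38. Of these only CDH5 was called, without untreated array A. MITF stayed between -0.39 and -0.37. The letters were not shown to pair samples; with the replicate block 5063 genes were called up and 3968 down, and TAFA2 (0.29) and CRLF2 (-0.32) passed the threshold. TAFA2 was also called with quantile normalization repeated, with the dimmest genes left out and with an intensity trend. Other counts over all genes stayed within 1.5 times of those reported. With 2 arrays per group and no detection calls, small changes and those of dim genes are the least certain.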
